A study of Mus musculus with 4 samples.

Results

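The 10 genes described here are genes of bone cells and of matrix remodelling, followed in fetal mouse brain after a shortage of maternal food. They were Spp1, Ibsp, Postn, Alpl, Phex, Runx2, Sp7, Ctsk, Mmp9 and Mmp13, and the arrays carried 14 probes in 41 spots for these 10 genes, out of 41174 probes in 43379 spots for 28105 names. Every non-control spot that bore the name of a listed gene was taken. The list itself was chosen by gene name with the log2 ratios of these same arrays already known, so all values of its members are descriptions. All fetuses were C57BL/6J. Dams of the food deprivation (FD) pool went without food overnight on gestation day 17, and dams of the food restriction (FR) pool received 50% of the CE-2 chow that controls ate, from gestation day 10 to 17. Control dams ate the same chow freely. Section on gestation day 18 is stated for FR, and no day is named for FD. Each pool held brain RNA of 5 fetuses, and each treated pool was hybridised with control RNA on 2 arrays with the dyes exchanged, all 4 arrays on 1 slide. The treated RNA bore Cy5 on array 1 and Cy3 on array 2. The labels do not say whether the control RNA of FD and that of FR were 1 pool, and they are called the control of FD and the control of FR here.

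With 1 pool per condition there was no biological replicate and no test, and the diet cannot be told apart from chance differences between pools of fetuses. A log2 ratio below is log2 of treated over control on an array, and a level is the log2 channel signal of a pool in 1 dye. A gene is called higher or lower when it was at least 1.5-fold (0.58 on the log2 scale) away from its control, the same way on both arrays. The 2 arrays of a comparison differed through measurement alone. The SD of their deviation from the mean log2 ratio, over all measured genes, was 0.127 in FD and 0.131 in FR. The share of spots well above background was 73.5% to 84.2% in treated channels and 71.4% to 85.3% in control channels. Of 14 neuron markers, 13 were measured in FD and 12 in FR, with mean levels between 10.3 and 10.4 in all 4 pools.

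Bone is laid down by osteoblasts, which secrete collagen and acidic phosphoproteins and then load this matrix with mineral, and it is removed by osteoclasts, which dissolve mineral with acid and matrix with proteases. Runx2 and, downstream of it, Sp7 are the transcription factors without which no osteoblasts form. Most of these genes also work outside bone. Spp1 (osteopontin) is made by macrophages, some neurons and many injured tissues, Mmp9 by neutrophils and by cells that remodel vessels and matrix, and Alpl by endothelium and neural cells. In bulk tissue, fewer cells of a type and less RNA per cell cannot be told apart.

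The Spp1 and Mmp13 promoters are shown as examples of windows that hold the core letters of a RUNX site. The Ibsp promoter is shown beside them because Ibsp is the nearest of the other members to Spp1 on chromosome 5. Spp1 and Mmp13 stood highest in the control of FD, but so, in mean level, did Alpl, Ctsk, Mmp9 and the measured probe of Runx2. The windows of Alpl and Ctsk lack the RUNX letters, as does a second window of Spp1. Each window is the 250 bases before the start of the gene in RefSeq on build GRCm38.p6, on the strand of the gene. Those shown are chr5:104434861-104435110 (plus strand) for Spp1, chr5:104299037-104299286 (plus strand) for Ibsp and chr9:7272264-7272513 (plus strand) for Mmp13. Capitals mark the RUNX letters TGTGGTT or the AP-1 letters TGAGTCA, searched on both strands and here found as their reverse complements.
Spp1 promoter: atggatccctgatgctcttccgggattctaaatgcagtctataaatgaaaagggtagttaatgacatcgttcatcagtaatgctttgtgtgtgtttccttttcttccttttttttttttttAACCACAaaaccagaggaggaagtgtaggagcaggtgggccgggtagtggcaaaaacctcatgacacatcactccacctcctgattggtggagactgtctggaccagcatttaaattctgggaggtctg
Ibsp promoter: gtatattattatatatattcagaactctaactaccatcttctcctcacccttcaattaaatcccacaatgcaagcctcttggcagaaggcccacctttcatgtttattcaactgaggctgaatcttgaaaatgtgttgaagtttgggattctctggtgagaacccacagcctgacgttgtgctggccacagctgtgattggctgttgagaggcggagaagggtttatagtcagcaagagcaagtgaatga
Mmp13 promoter: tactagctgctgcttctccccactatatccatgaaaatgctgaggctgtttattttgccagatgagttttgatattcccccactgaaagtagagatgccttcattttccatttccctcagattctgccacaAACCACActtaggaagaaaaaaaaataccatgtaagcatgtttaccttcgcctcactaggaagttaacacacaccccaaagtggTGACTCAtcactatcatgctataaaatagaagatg
The RUNX letters lay from -129 to -123 in the Spp1 window, from -119 to -113 in the Mmp13 window and, in the window of Runx2 itself, from -81 to -75, counted back from the start of the gene. The AP-1 letters lay from -35 to -29 in the Mmp13 window. The table had 11 windows for 8 of the 10 genes, and 3 of these windows held the RUNX letters and 1 the AP-1 letters. Among all 32851 windows, 4.4% held the RUNX letters and 4.46% the AP-1 letters. A match of letters is a description of the sequence and not a bound site. Mmp9 and Sp7 had no window in the table.

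Of the probes, that of the osteoclast protease Ctsk is shown because its genomic match is longer than the probe, and the second probe of Mmp9 because it reads the same gene independently of the first. The Ctsk probe (A_51_P448236) matched chr3:95310647-95310891 on the plus strand of build mm9, a span of 245 bases for its 60 bases. The Mmp9 probe (A_51_P401797) matched chr2:164780303-164780362 on the plus strand. The array files name no exon or untranslated region, and nothing is put in capitals here.
Ctsk probe: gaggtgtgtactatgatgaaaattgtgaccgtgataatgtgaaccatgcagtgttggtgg
Mmp9 probe: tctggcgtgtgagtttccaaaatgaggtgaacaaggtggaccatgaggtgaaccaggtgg

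Of the 10 genes, 9 were measured in each comparison, which means that treated and control signals both stood well above background on each array. The exception in both was Mmp13. The detection filter asks for signal in all channels, so these 9 are not all members. In FD, 1 of the 9 was called lower, Spp1, and 0 were called higher. Of all 17950 genes measured in FD, 0.128% were called lower and 0.0891% higher. The median log2 ratio of the 9 genes was -0.06 in FD (-0.04 on array 1 and -0.10 on array 2), beside 0.0043 over all measured genes. In FR, 0 of 9 were called in either direction, where 0.582% of 18547 genes were called higher and 0.431% lower. Their median in FR was 0.10 (0.15 on array 1 and 0.17 on array 2), beside 0.0050 over all genes. On both arrays, 2 of the 9 were positive and 3 negative in FD, and 6 were positive and 1, Mmp9, negative in FR. The means ran from -0.97 to 0.09 in FD and from -0.43 to 0.60 in FR, with Spp1 and Mmp9 farthest from 0 in FD and Ibsp, Mmp9 and Phex in FR.

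**Figure D1:**
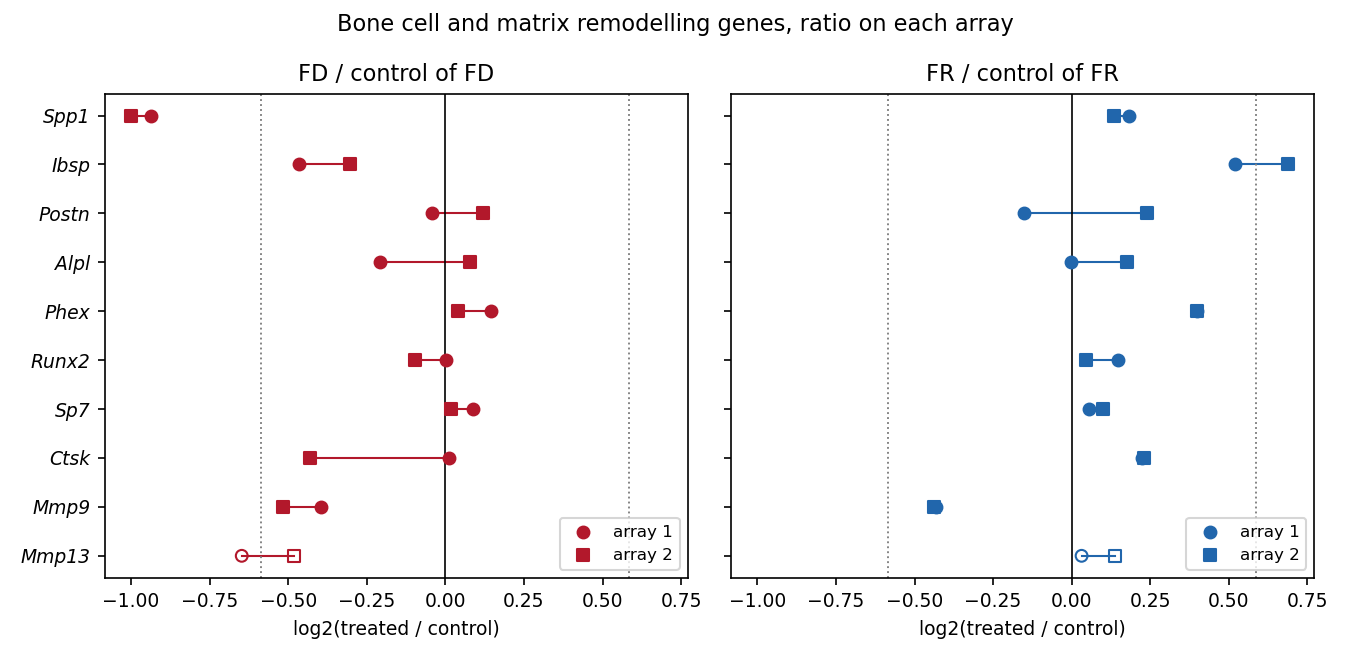
Log2 ratio of treated over control for the 10 genes on array 1 (circles) and array 2 (squares), FD on the left and FR on the right, with open symbols where the probe was not well above background in both channels and dotted lines at 1.5-fold. Spp1 lies at -0.94 and -0.998 in FD and at 0.18 and 0.13 in FR, while Mmp9 lies between -0.40 and -0.52 on all 4 arrays.

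Spp1, a secreted phosphoprotein that binds integrins and calcium, was the member farthest from its control. Its single probe (A_51_P358765, chr5:104869788-104869847, plus strand, mm9) was printed in 10 spots on each array. The log2 ratio was -0.94 on array 1 and -0.998 on array 2 of FD, a mean of -0.97 ± 0.045 (SD, n = 2 arrays of the same pools), or 1.95-fold lower in FD. In FR it was 0.18 and 0.13, a mean of 0.16 ± 0.034. The FD spots that were kept ran from -0.98 to -0.90 on array 1 (8 spots, SD 0.0285) and from -1.17 to -0.86 on array 2 (6 spots, SD 0.118). The FR spots ran from 0.0084 to 0.38 on array 1 (9 spots, SD 0.135) and from -0.05 to 0.29 on array 2 (8 spots, SD 0.122). No FD spot of Spp1 overlapped any FR spot. When median centring took the place of loess within the array, the mean in FD was -0.89, but array 1 gave -0.16 and array 2 gave -1.61, so the call was lost.

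The levels show where this difference lay. Spp1 stood at 10.27 in Cy5 and 10.21 in Cy3 in the FD pool, against 11.20 in Cy3 and 11.21 in Cy5 in the control of FD. It stood at 9.94 in both dyes in the FR pool, against 9.76 in Cy3 and 9.80 in Cy5 in the control of FR. The order from high to low was therefore control of FD, FD, FR and control of FR, and no neighbours in this order overlapped. The control of FD lay above the control of FR by 1.44 in Cy3 and 1.41 in Cy5, a mean of 1.43. The FD pool lay above the FR pool by 0.33 in Cy5 and 0.28 in Cy3. The gap between the control pools was thus wider than the gap between FD and its own control, and Spp1 was low in FD only when set against the control of FD. Of the 9 members measured on all 4 arrays, 1, again Spp1, was at least 1.5-fold higher in the control of FD than in the control of FR in both dyes, and 0 were lower. Over all 16747 genes these shares were 0.113% and 0.0896%. Between the levels of FD and FR, 0 of 9 members reached 1.5-fold in both dyes, beside 0.394% of all genes in either direction.

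**Figure D2:**
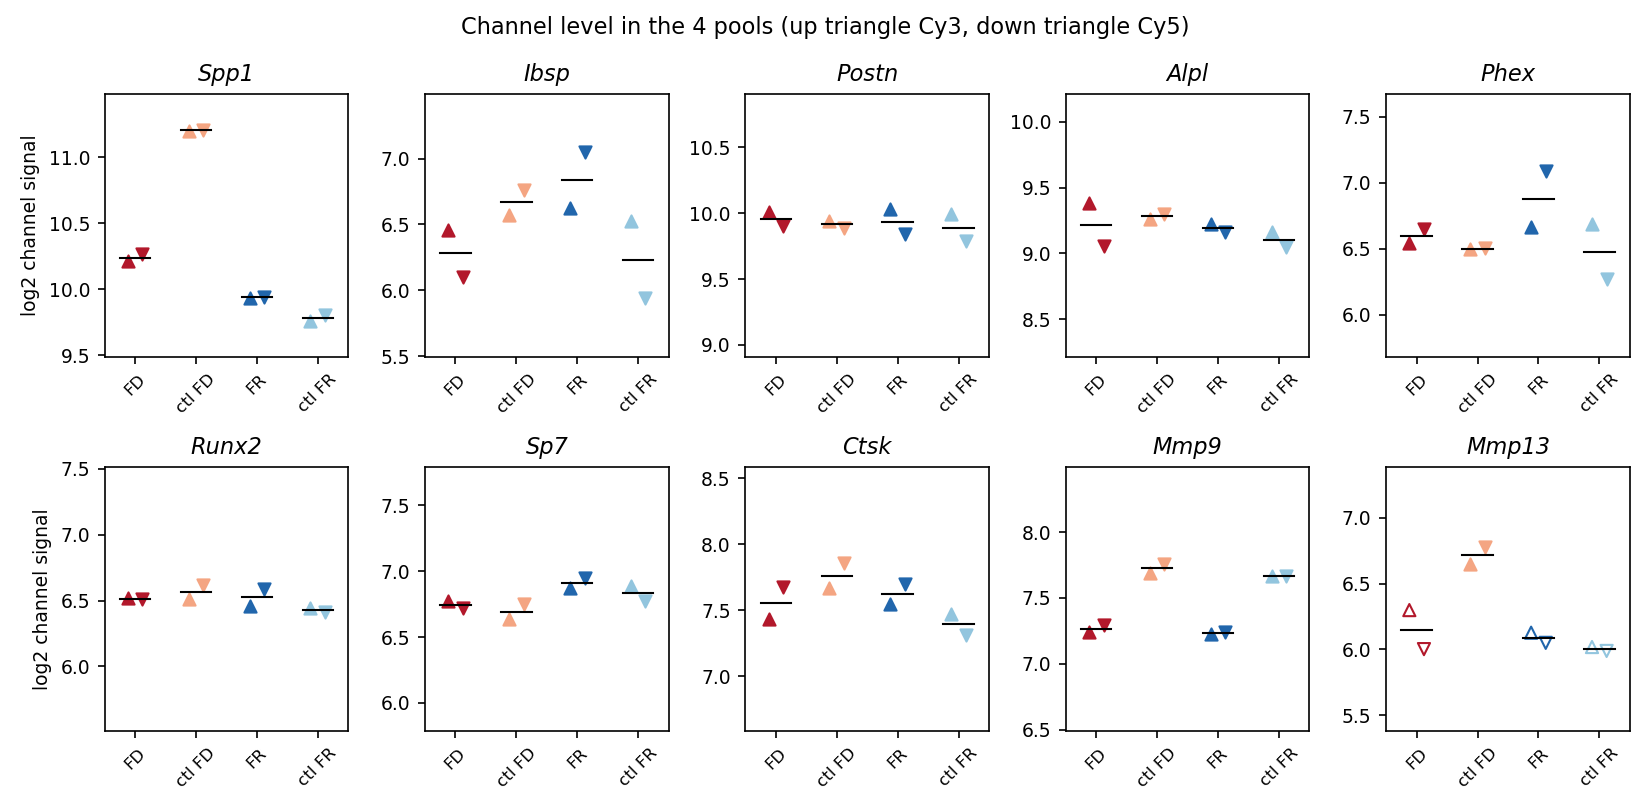
Channel level (log2) of each gene in the FD pool, the control of FD, the FR pool and the control of FR, with up triangles for Cy3, down triangles for Cy5, bars for the mean of both dyes and open symbols where the probe was not well above background. Each panel has its own range of levels. Spp1 and Mmp13 stand highest in the control of FD, and so, in mean level, do Alpl, Runx2, Ctsk and Mmp9. Mmp9 stands lower in FD and FR than in either control.

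Ibsp encodes bone sialoprotein, an integrin-binding protein of mineralising matrix, and lies close to Spp1 on chromosome 5 in a cluster of genes for acidic matrix proteins. Its 1 probe (A_51_P486923, chr5:104739931-104739990, plus strand, mm9) was dim, with uncorrected intensities from 58.4 to 169 over the 8 channels. Its log2 ratio was -0.47 and -0.30 in FD (1.31-fold lower) and 0.52 and 0.69 in FR (1.52-fold higher). The first FR array fell short of 1.5-fold, so Ibsp was called in neither comparison. Its level was 6.10 in Cy5 and 6.46 in Cy3 in FD, against 6.57 in Cy3 and 6.76 in Cy5 in the control of FD. It was 7.05 in Cy5 and 6.63 in Cy3 in FR, against 6.53 in Cy3 and 5.94 in Cy5 in the control of FR. Neither treated pool overlapped its own control, but FR overlapped the control of FD, and FD overlapped the control of FR.

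The ratio of Ibsp depended on how the background was removed more than that of any other measured member. The log ratio of the scanner software, which subtracts the background without an added constant, was -2.15 and -1.60 in FD and 2.24 and 3.36 in FR. With a constant of 10 added in place of 50, an alternative chosen after the data were seen, it was -0.99 and -0.58 in FD and 0.94 and 1.41 in FR. The direction was the same in all 3, and the fold of so dim a probe has no settled size. With the scanner ratio, 3 members were called lower in FD (Spp1, Ibsp and Mmp9), where 0.373% of all genes were. In FR, the scanner ratio called 2 members higher (Ibsp and Phex), where 1.71% of genes were, and 1 lower (Mmp9), where 1.54% were. The constant of 10 called 1 member lower in FD, Spp1, where 0.212% of genes were. In FR it called the same 2 members higher as the scanner ratio, where 1.07% of genes were, and 1 lower, again Mmp9, where 0.841% were.

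**Figure D3:**
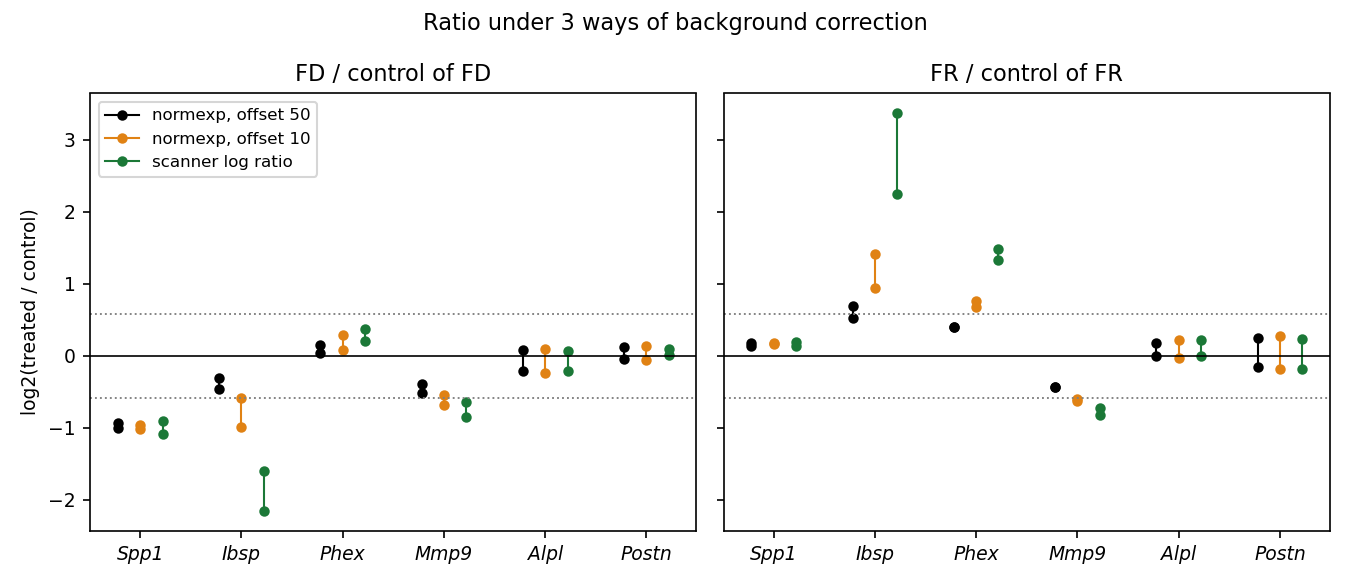
Log2 ratio of treated over control for 6 genes on both arrays, FD on the left and FR on the right, under normexp with a constant of 50 (black) or 10 (orange) and as the scanner's own log ratio (green), with dotted lines at 1.5-fold. Spp1, Alpl and Postn barely differ between the 3, while Ibsp widens to -2.15 in FD and 3.36 in FR.

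Set against each other, the FD ratio was lower than the FR ratio by at least 1.5-fold in both dye orientations for 2 of 9 members, Spp1 and Ibsp, and for 0 in the other direction. Over all 16747 genes, 0.269% were called lower in this way and 0.0717% higher. For Spp1 the difference of log2 ratios, FD minus FR, was -1.12 on array 1 and -1.13 on array 2. For Ibsp it was -0.99 on both. Both genes were also lower than control on both FD arrays and higher than control on both FR arrays, a pattern held by 3.03% of all genes. With normexp fitted on all spots of each array, Ibsp was at 0.52 and 0.02 in FR and lost its call, which left Spp1. On array 2 of FR this setting put every probe of the members between -0.02 and 0.06. Member values on the other arrays stayed the same.

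Postn encodes periostin, a secreted protein of collagen-rich connective tissue and periosteum. Its probe (A_51_P489192, chr3:54194483-54194542, plus strand, mm9) gave log2 ratios of -0.04 and 0.12 in FD and of -0.15 and 0.24 in FR. Its level was 9.90 and 10.01 in FD, against 9.94 and 9.89 in the control of FD. It was 9.84 and 10.03 in FR, against 9.99 and 9.79 in the control of FR. All 4 pools overlapped, and the arrays of each comparison had opposite signs. A further probe, listed under the older name A630052E07Rik and therefore no member, gave 0.01 and 0.11 in FD and -0.12 and -0.08 in FR.

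Alpl and Phex act on mineral. Alpl, tissue-nonspecific alkaline phosphatase, frees phosphate by splitting pyrophosphate, an inhibitor of mineral growth. Its probe (A_51_P494125, chr4:137297658-137297716, minus strand, mm9) gave -0.21 and 0.08 in FD and -0.0012 and 0.17 in FR. Its level was 9.06 and 9.38 in FD, against 9.26 and 9.30 in the control of FD. It was 9.16 and 9.22 in FR, against 9.16 and 9.05 in the control of FR, so neighbouring pools overlapped throughout.

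Phex, a membrane peptidase of osteoblasts and osteocytes whose loss causes phosphate wasting, had a dim probe (A_51_P468249, chrX:153596731-153596790, minus strand, mm9). Its log2 ratio was 0.15 and 0.04 in FD and 0.40 on both arrays in FR, or 1.32-fold higher in FR. Its level was 6.65 in Cy5 and 6.54 in Cy3 in FD, against 6.50 in both dyes in the control of FD. It was 7.09 in Cy5 and 6.67 in Cy3 in FR, against 6.69 in Cy3 and 6.27 in Cy5 in the control of FR. Within each array FR was higher, yet the ranges of both pools overlapped across arrays, and array 1 was brighter than array 2 in both pools. The scanner ratio of Phex was 0.37 and 0.21 in FD and 1.48 and 1.32 in FR. With normexp on all spots, the FR arrays gave 0.40 and 0.01, and array 2 was near 0 for every member.

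The transcription factors had small log2 ratios at a constant of 50, and larger ones in the scanner ratio. Runx2 was read by 4 probes on the minus strand of chromosome 17, of which 1 was measured (A_51_P230942, chr17:44741014-44741073, mm9, 10 spots). It gave 0.0037 and -0.10 in FD and 0.15 and 0.05 in FR. Its scanner ratio was 0.0017 and -0.32 in FD and 0.67 and 0.26 in FR. Its spots had SDs of 0.0512 and 0.0516 on the FD arrays and 0.0889 and 0.0812 on the FR arrays. The level was 6.51 and 6.52 in FD, against 6.51 and 6.61 in the control of FD, and 6.59 and 6.46 in FR, against 6.44 and 6.41 in the control of FR.

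The remaining probes of Runx2 were not well above background in every channel. On mm9, A_52_P415319 (chr17:44741152-44741211) gave 0.15 and -0.13 in FD and 0.31 and -0.0044 in FR. A_52_P460545 (chr17:44744925-44744984), not above background in any channel, gave 0.23 and 0.02 in FD and 0.08 and -0.20 in FR. A_52_P55876 (chr17:44951128-44951187) gave 0.02 and -0.0010 in FD and 0.14 and -0.03 in FR. None gave the same sign on all 4 arrays. Sp7, known as osterix, had 1 probe (A_52_P236709, chr15:102187692-102187751, minus strand, mm9) with 0.09 and 0.02 in FD and 0.06 and 0.10 in FR. The scanner ratio of Sp7 was 0.55 and 0.03 in FD and 0.27 and 0.09 in FR. Its level was 6.72 and 6.77 in FD, against 6.63 and 6.75 in the control of FD, and 6.95 and 6.87 in FR, against 6.89 and 6.77 in the control of FR.

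**Figure D4:**
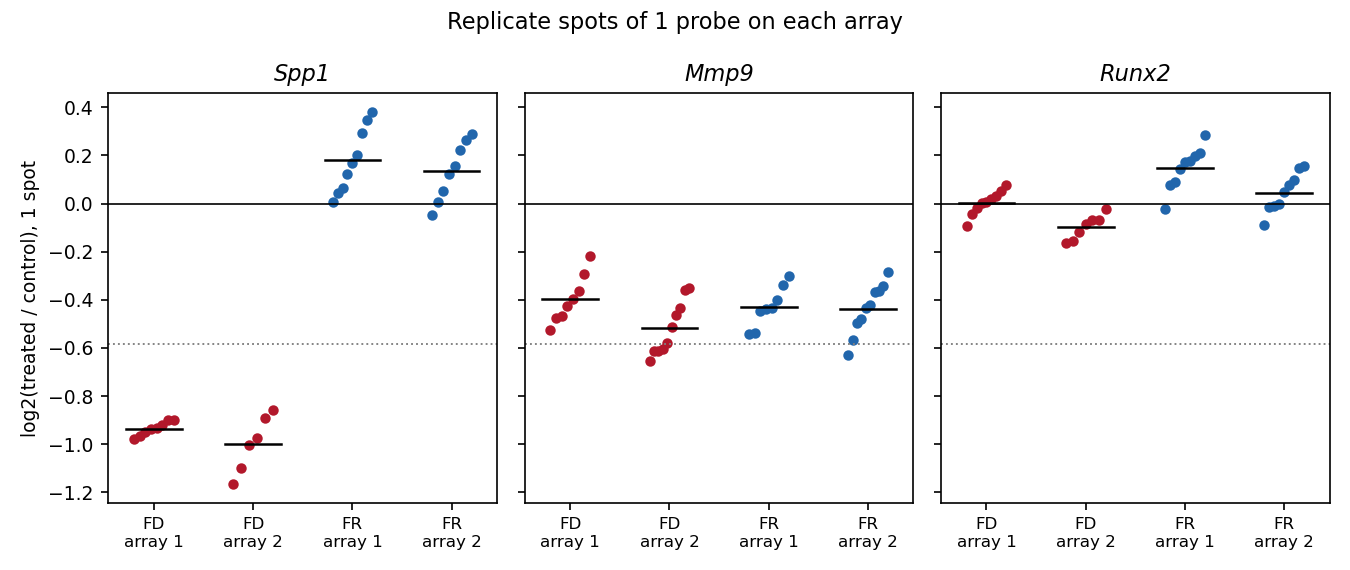
Log2 ratio of treated over control in each kept spot of the 3 probes printed 10 times per array, for Spp1, Mmp9 and Runx2, with bars for the mean of an array and a dotted line at 1.5-fold lower. Spots of Spp1 lie at or below -0.86 in FD and at or above -0.05 in FR, those of Mmp9 lie below 0 on all 4 arrays, and those of Runx2 lie around 0.

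Among the proteases, Mmp9 was lower than control on all 4 arrays. It encodes gelatinase B, which cleaves denatured collagen and basement membrane collagen and is made by osteoclasts and neutrophils. The brighter of its 2 probes (A_52_P507214, chr2:164780620-164780679, plus strand, mm9, 10 spots) gave -0.40 and -0.52 in FD (1.37-fold lower) and -0.43 and -0.44 in FR (1.35-fold lower). Spots of this probe ranged from -0.66 to -0.22 in FD and from -0.63 to -0.28 in FR, with SDs between 0.0861 and 0.111. The second probe, shown above, gave -0.27 and -0.45 in FD and -0.32 and -0.20 in FR. Mmp9 was the only 1 of the 9 members lower on all 4 arrays, a pattern that 12.4% of all genes had.

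The level of Mmp9 was 7.29 and 7.24 in FD, against 7.69 and 7.76 in the control of FD. It was 7.24 and 7.23 in FR, against 7.67 and 7.67 in the control of FR. Neither treated pool overlapped either control, and the controls differed by 0.02 in Cy3 and 0.09 in Cy5. At a size of 1.2-fold, 3 members were lower in FD (Spp1, Ibsp and Mmp9), where 1% of genes were. At that size in FR, 1 was lower (Mmp9), where 4.2% of genes were, and 2 were higher (Ibsp and Phex), where 3.85% were. The scanner ratio of the brighter probe was -0.64 and -0.85 in FD and -0.73 and -0.83 in FR, past 1.5-fold on all 4 arrays. With normexp on all spots, array 2 of FR gave -0.02, near 0 as for every member.

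Ctsk encodes cathepsin K, the cysteine protease with which osteoclasts digest bone collagen. It gave 0.01 and -0.43 in FD and 0.22 and 0.23 in FR, so the FD arrays did not share a size. Its scanner ratio was -0.03 and -0.53 in FD and 0.45 and 0.38 in FR. Its level was 7.68 and 7.43 in FD, against 7.67 and 7.86 in the control of FD. It was 7.70 and 7.54 in FR, against 7.48 and 7.31 in the control of FR. Treated and control pools overlapped in FD and did not in FR.

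Mmp13, collagenase 3, cleaves fibrillar collagen in growth cartilage and forming bone. Its probe (A_51_P184484, chr9:7282762-7282821, plus strand, mm9) was well above background in 1 of the 4 pools, the control of FD, on both arrays. Its level was 6.00 and 6.30 in FD, where it was not well above background, against 6.65 and 6.78 in the control of FD. Its log2 ratio was -0.65 and -0.48 on the FD arrays, or 1.48-fold lower in FD in the mean. This fold rests on an FD signal that was not well above background, so it has no settled size. In FR and in its control, at mean levels of 6.09 and 6.00, Mmp13 was not well above background and has no fold.

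Dspp, Dmp1, Ibsp, Mepe and Spp1 lie next to each other on chromosome 5 in that order and encode acidic proteins of bone and tooth matrix. Dmp1, made by osteocytes and odontoblasts, was well above background in the control of FD on both arrays and on neither array in FD. Its log2 ratio in FD was -0.23 and -0.22, or 1.17-fold lower, at a mean level of 6.19 against 6.42 in the control of FD. As its FD signal was not well above background, this fold has no settled size. Mepe gave 0.02 and -0.18 in FD, and in FR its spot on array 2 was left out for an outlier flag. Dspp was not well above background in any pool. Of these 5 neighbours, Spp1 was called in FD, Ibsp and Dmp1 were lower there without a call, and Mepe had opposite signs on the arrays.

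Of 30 other genes of osteoblasts and bone matrix, 24 were measured in FD and 22 in FR. The collagen gene Col1a1, the main fibrillar collagen chain of bone, skin and tendon, was called lower in FD, and 0 were called in FR. The count in FD was 0 with median centring and with the mean over measured probes, and 2 with the scanner ratio and with a constant of 10. The list median was 0.02 in FD, but -0.0076 and -0.0068 on its single arrays, and 0.0091 in FR. The brightest probe of Col1a1 gave -0.90 and -0.75 in FD (1.77-fold lower) and 0.38 and 0.63 in FR (1.42-fold higher). Its level was 11.44 and 11.46 in FD, against 12.34 and 12.22 in the control of FD, and 12.17 and 12.36 in FR, against 11.79 and 11.73 in the control of FR. The order of its pools differed from that of Spp1, since FD was the lowest of the 4 and FR overlapped the control of FD. Another Col1a1 probe gave -0.64 and -0.57 in FD and 0.38 and 0.35 in FR, and the third, near background, gave -0.06 and -0.03 in FD and 0.02 and -0.03 in FR. Bglap (osteocalcin), singled out after its values were seen and near-identical to 2 neighbouring copies, gave -0.45 and -0.54 in FD and 0.13 and 0.01 in FR, and its control of FD again stood above the other 3 pools. Dlx3, Dmp1 and Dspp were measured in neither comparison.

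None of the other lists of bone resorption and matrix breakdown held a call. For osteoclast genes, 0 of 16 were called in FD (median -0.0068) and 0 of 17 in FR (median 0.03). Their farthest members in FD were Ostm1, a subunit of the lysosomal chloride exchanger, at 0.20, the transcription factor Nfatc1 at -0.13 (-0.28 and 0.02 on the arrays) and the calcitonin receptor Calcr at 0.13. For matrix metalloproteinases and their inhibitors, 0 of 14 were called in FD (median -0.03) and 0 of 16 in FR (median 0.05). The farthest in FD were the membrane-anchored protease Mmp17 at -0.21, the inhibitor Timp2 at -0.20 (-0.39 and -0.01) and the membrane-anchored inhibitor Reck at 0.18 (0.39 and -0.03). For cathepsins and cystatin C, 0 of 12 were called in FD (median 0.02) and 0 of 10 in FR (median -0.05). Ctso at 0.42, Ctsb at 0.23 and Ctsz at -0.15 were the farthest in FD, and among these 3 the arrays differed most for Ctsz, at -0.0032 and -0.30. These shares stand beside the background of calls given above.

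Markers of other tissues and cells moved with some of these values, and their part in the results was not tested. The design text states that the brains were dissected free of other tissue. Skeletal muscle markers had 9 of 11 measured members called lower in FD, with a median of -1.69, and 0 of 13 called in FR. Their mean level ranged from 7.63 to 7.69 in FD, against 9.21 to 9.23 in the control of FD, and from 7.94 to 7.99 in FR, against 7.92 to 7.96 in the control of FR. Muscle markers and Spp1 thus both stood highest in the control of FD. Fat cell markers had 2 of 6 called lower in FD, Fabp4 at -3.08 and Ucp1 at -1.53. Their mean level ranged from 7.79 to 7.93 in FD, against 8.71 to 8.78 in the control of FD. In FR 1 of 6 was called lower, Cidea at -0.68, and 0 were with normexp on all spots or with median centring. Over all genes, FR had 108 higher and 80 lower calls, against 9 and 4 with normexp on all spots and 31 and 6 with median centring. Mean levels of fat cell markers ranged from 7.69 to 7.82 in FR, against 7.83 to 7.94 in the control of FR. Adipoq and Cfd were measured in neither comparison.

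Cartilage markers had 0 of 17 called in FD and 1 of 17 in FR, Col2a1, the main cartilage collagen, at 0.63. With normexp on all spots and with median centring, settings with fewer FR calls over all genes, 0 cartilage markers were called in FR. Their mean level ranged from 7.81 to 7.85 in FD, against 7.89 to 7.90 in the control of FD, and from 7.97 to 7.98 in FR, against 7.87 to 7.93 in the control of FR. Of the defining markers, Col10a1, Ihh, Matn1 and Matn3 were measured in neither comparison. Markers of meninges and fibroblasts had 0 of 14 called in FD and 0 of 11 in FR, with Lum, a collagen-binding proteoglycan, at -0.35 in FD, Foxc2 at 0.21 (0.54 and -0.12) and Ptgds at 0.18 (0.35 and 0.01). Dcn was measured in neither. Mean levels of this list lay between 8.71 and 8.83 in all 4 pools.

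Of the cells other than bone that make Spp1 or Mmp9, microglia and macrophage markers had 0 of 18 called in FD and 0 of 17 in FR. Their mean level ranged from 8.26 to 8.32 in FD, against 8.20 to 8.27 in the control of FD, and from 8.11 to 8.20 in FR, against 8.21 to 8.22 in the control of FR. Farthest from 0 in FD were Tyrobp at 0.27 (0.45 and 0.08), C1qb at 0.24 and Trem2 at 0.20 (0.34 and 0.07). Neutrophil markers had 0 of 7 called in FD and 3 of 6 called higher in FR, S100a9 at 1.05, Csta1 at 1.09 and Stfa1 at 0.92. These FR calls numbered 0 with normexp on all spots, where the list median was 0.39 in place of 0.75, and 1 with median centring. Their mean level ranged from 7.30 to 7.33 in FD, against 7.34 in the control of FD, and from 7.95 to 8.05 in FR, against 7.27 to 7.43 in the control of FR. In FR, the ratio of Mmp9 was negative and those of these 3 neutrophil markers positive. Elane, Lcn2, Mmp8, Ngp and Retnlg were measured in neither comparison. Endothelium and pericyte markers had 0 of 9 called in both, and Kdr at -0.24, Rgs5 at -0.24 and Kcnj8 at 0.20 were the farthest in FD. Neuron markers had 0 of 13 called in FD and 0 of 12 in FR, with Syt1 at -0.33, Dcx at -0.16 and Tubb3 at -0.12 in FD. Neural progenitor markers had 0 of 6 called in FD and 0 of 7 in FR, with Nes at -0.24 and Eomes at -0.23 in FD.

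The genes whose 4 log2 ratios came closest to those of Spp1 were taken among 13351 named genes measured on all 4 arrays, by Euclidean distance. They were Car3, a carbonic anhydrase (distance 0.108), Apobec2 (0.294), the hormone precursor Pomc (0.314), the muscle protein Smpx (0.369), the fast troponin Tnnt3 (0.384) and the fast myosin heavy chain Myh4 (0.421). Car3 gave -0.998 and -0.95 in FD and 0.11 and 0.16 in FR. In mean level it stood at 6.82 in FD, against 7.80 in the control of FD, and at 6.86 in FR, against 6.72 in the control of FR. In all 6 genes, the control of FD was the highest of the 4 pools. The choice by log2 ratio itself put FD below its control and FR near its own. It did not fix the levels of the FD arrays against those of the FR arrays. FD lay above FR in Spp1 by a mean of 0.30, and in Pomc the mean level was 8.90 in FD and 8.83 in FR. Apobec2, at 6.88 in FD and 6.86 in FR, Smpx, at 6.38 in FD and 6.32 in FR, and Tnnt3, at 6.95 in both, were also slightly higher in FD. Car3 and Myh4, at 6.85 in FD and 6.89 in FR, were slightly lower in FD.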

How the data were processed

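RNA of fetal mouse brain was measured in 4 hybridisations of 2-colour Agilent arrays with 60-base probes. Per the file headers, each deposited scanner file gives the mean intensity of each spot and the median of its local background in each channel, from Agilent Feature Extraction 9.5.3.1. They also hold a log10 ratio that the scanner software had background-subtracted and dye-normalised, and flags of 0 or 1, by the same headers as deposited. A deposited value table, used as an alternative, gave the same values for the measured members as the log2 of that ratio, turned to treated over control. How the authors made its values of dim spots is not given in the sources used here.

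Intensities were corrected with normexp (offset 50) in limma 3.58.1 under R 4.3.3, without spots whose local background exceeded 2 times the array median, and normalised with loess within each array. This exclusion was made with the effect of a bright patch known, and the spots numbered 3 on array 1 of FD and 44 on array 2 of FR, where the background reached 65319. Normexp on all spots kept them, and every member probe on array 2 of FR then lay between -0.02 and 0.06. Control spots and outlier flags were left out, spots of a probe were averaged, and array 2 was turned. Levels are channel signals after Aquantile between arrays. The brightest measured probe stood for a gene. Names came from RefSeq (GRCm38.p6), 26918 of 41174 probes by accession, 5082 by symbol and 816 by an older symbol, and 8358 kept the name in the file. The scripts were tested on simulated data.

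The members and gene lists were chosen with earlier results of these data known. Named beside the members are each list's called genes or else its 3 farthest in FD, the 6 genes most like Spp1, and the neighbours of Spp1 and Ibsp. A gene that this rule takes is not reported here. Alternatives were other background corrections, median centring, no filter on dim probes, the mean of probes, the deposited table, each array alone and other call sizes. No variance was fitted, since each comparison has 1 pair of pools.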

Additional observations from a re-analysis of the deposited data

Results flagged for a closer look

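Some values lay on opposite sides of 0 in FD and in FR on every array, and none of these differences was tested. The difference of mean log2 ratios, FD minus FR, was -1.12 for Spp1 and -0.99 for Ibsp. Medians of 5 lists had a sign on both arrays of FD opposite to that on both arrays of FR. The differences of these medians, FD minus FR, were 0.0080 for osteoblast and bone matrix genes, -0.073 for matrix metalloproteinases and inhibitors, -0.11 for cartilage markers, 0.12 for microglia and macrophage markers and -0.13 for neural progenitor markers. For 2 of these lists the median of the array means went against the single arrays: osteoblast and bone matrix genes had 0.02 in FD, against -0.0076 and -0.0068 on the arrays, and neural progenitor markers had -0.06 in FR, against 0.21 and 0.05.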

How the results depend on the processing

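The count of members called in FD versus control, 1, was 3 with the scanner ratio, with the deposited table and at 1.2-fold, and 0 with median centring and at 2-fold. In FR versus control the count of 0 was 3 with the scanner ratio, with the deposited table, at 1.2-fold and with an offset of 10, and 0 to 1 on single arrays. FD against FR, 2 members, gave 1 with normexp on all spots, 3 with the scanner ratio and the deposited table (Phex added) and with no filter on dim probes (Mmp13 added), and 2 to 3 on single arrays. The FD median of -0.06 was -0.16 with the scanner ratio and the deposited table, -0.14 with no filter on dim probes, and -0.10 to -0.04 on single arrays. The FR median of 0.10 was 0.075 with normexp on all spots, 0.18 with the scanner ratio and the deposited table, 0.12 with median centring, 0.17 with an offset of 10, and 0.15 to 0.17 on single arrays. The mean difference of member levels, control of FD minus control of FR, was 0.28, and 0.15 to 0.41 in single dyes. This mean was raised by Spp1, the highest at 1.43, and the lowest member was at -0.14. The median over the 9 measured members was 0.13, with 0.04 in Cy3 and 0.23 in Cy5. Over all genes, FD had 16 higher and 23 lower calls, against 74 and 67 with the scanner ratio, 2 and 19 with median centring and 32 and 38 with an offset of 10. FR had 108 and 80, against 318 and 286 with the scanner ratio, 9 and 4 with normexp on all spots, 31 and 6 with median centring and 198 and 156 with an offset of 10. FD against FR had 12 higher and 45 lower of 16747, against 135 and 124 with the scanner ratio, 2 and 26 with normexp on all spots, 31 and 35 with median centring and 36 and 68 with an offset of 10. Of the values of single members under an alternative, 45 moved by more than the spread (SD) of the arrays and 117 did not. Many of the 117 could not move, since an array taken alone always lies within that SD of the mean. Dropping the filter changed no measured member, and averaging probes could change only Mmp9. Normexp on all spots left the FD values of members as they were, and the deposited table repeated the scanner ratio. The only called value, Spp1 in FD, kept its sign. The causes of the moves were not tested. No paired analysis was possible because each comparison has a single treated pool and a single control pool. The folds of the dim probes of Ibsp, Phex, Runx2, Sp7 and Mmp13 are limited by their signal, and 1 pool per condition limits every comparison.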
